A study of Mus musculus with 16 samples.

Results

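Mitochondrial DNA and the nuclear genes that express it were followed in ventricular myocytes of mice after pressure overload. The genes described here are the 13 deposited genes whose symbol begins with mt- and 24 named nuclear genes that replicate, transcribe, process or regulate mitochondrial DNA, each with a mean count of 5 or more. All 37 met that minimum, out of 35682 genes in the table. The 13 mt- genes are all the protein-coding genes of the mouse mitochondrial genome; its 2 ribosomal RNA and 22 transfer RNA genes were not analysed here. All 16 animals had been operated for transverse aortic constriction (TAC), a narrowing of the aorta that loads the left ventricle, and were studied 9 weeks later. Of these, 8 carried B3AR-Tg, a transgene named for the beta-3 adrenergic receptor, and 8 were wild-type (WT) littermates, so both groups share the surgery and neither is an unoperated heart. The promoter that drives the transgene, the founder line, the age and the sex of the animals are not given in the sources used here. Myocytes were isolated by Langendorff perfusion and plated for 1 hour, and total RNA was sequenced after ribosomal RNA depletion.

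Mitochondrial DNA encodes core subunits of respiratory complexes I, III and IV and of the ATP synthase, complex V. It is copied by the polymerase gamma holoenzyme and read by a single-subunit RNA polymerase into long transcripts from both strands, which are cut at the transfer RNAs that separate most genes. The amount of each messenger RNA then depends on stabilising, polyadenylating and degrading factors imported from the cytosol. In heart muscle, mitochondrial transcripts make up a large part of all RNA, since myocytes hold many mitochondria.

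Several of these genes have near-identical copies in nuclear DNA, and the counts of a gene and its copy are hard to tell apart. In GENCODE M21, 7 copies of protein-coding mt- genes lie together at chr1:24611535-24616197 (GRCm38). Transcripts were aligned with BLAST. The Gm28661 transcript was identical to mt-Co2 over 681 bases, Gm28437 to mt-Co3 over 783, Gm10925 to mt-Atp6 over 678, Gm28439 to mt-Nd4 over 876 and Gm10222 to mt-Nd4l over 294. Gm28438 matched mt-Nd3 at 344 of 345 bases, and Gm29216 matched mt-Co1 at 482 of 483. The first 60 bases of mt-Nd3 and of its copy are shown because the single difference lies in the start codon, written T3C with the mitochondrial base first, the position counted from 1 at the 5′ end of the mitochondrial transcript and the base of the copy last. It is in capitals.
mt-Nd3: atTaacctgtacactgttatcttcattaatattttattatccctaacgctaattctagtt
Gm28438: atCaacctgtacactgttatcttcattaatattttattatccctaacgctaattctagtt
For mt-Co1 and Gm29216 the single difference was A1066T, in capitals in a stretch of 60 bases that begins at base 1063 of mt-Co1.
mt-Co1: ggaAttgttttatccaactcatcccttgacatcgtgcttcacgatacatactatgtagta
Gm29216: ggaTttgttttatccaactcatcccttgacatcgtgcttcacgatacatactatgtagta
No base separated mt-Co2 from Gm28661, and 1 sequence, with the start codon in capitals, therefore stands for both.
mt-Co2 and Gm28661: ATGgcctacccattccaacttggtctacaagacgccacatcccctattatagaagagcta
A read from such a stretch carries no mark of its origin, unless it covers 1 of the 2 differences shown. Gm20594, on chr6:79817916-79818364, is a different case. It resembled the ribosomal RNA gene mt-Rnr2 at 385 of 435 aligned columns (88.5%), and a stretch of 60 bases from base 808 of mt-Rnr2 shows 6 mismatches in capitals.
mt-Rnr2: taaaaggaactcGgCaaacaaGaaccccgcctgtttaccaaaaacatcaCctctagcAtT
Gm20594: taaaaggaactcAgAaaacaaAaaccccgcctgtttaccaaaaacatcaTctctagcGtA
All sequences are from GENCODE M21 transcripts, 5′ to 3′. No match to an mt- transcript was found among 789 transcripts of the nuclear machinery and of the wider pathway described further on.

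Library totals lay between 5985335 and 14365864 counts. In the whole table, 537 of 10945 tested genes passed an adjusted p of 0.05 between genotypes (4.91%), 222 higher in B3AR-Tg (2.03%) and 315 lower (2.88%), by the quasi-likelihood F test of edgeR with Benjamini-Hochberg adjustment. At an unadjusted p under 0.05 the share was 19.3%, and the genotypes did not overlap for 49 genes (0.448%). With scaling by library size alone, 346 genes were higher and 165 lower, and the median log2 fold change of all genes moved from 0.01 to 0.08. The labelled cell type had its markers: the summed level of 8 cardiomyocyte genes had a median of 51645 CPM (counts scaled to library size) in WT and 56665 in B3AR-Tg, with none at 0. Of these 8, 1 was called. That was Ryr2, the calcium release channel, higher in B3AR-Tg (log2 fold change 0.46, edgeR adjusted p = 0.0359). The log2 fold change was negative for Mb (-0.17) and Tnnt2 (-0.16) and positive for the rest. Markers of other cells were low and unequal. The summed level of 6 fibroblast markers was 31.5 to 89.1 CPM in WT animals and 9.18 to 40.9 CPM in B3AR-Tg animals, with 3 of 5 tested markers lower in B3AR-Tg. Endothelial markers had medians of 104 and 61.6 CPM with 2 of 6 lower, mural markers 96.3 and 103 with 0 of 6 called, and leukocyte markers 4.80 and 2.51 with 0 of 1. Their part in the results was not tested beyond the fit that held their level as a covariate.

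The 13 mt- genes took a large and variable part of each library. Their share of all counts ran from 18.8 to 27.5% in WT, with a median of 23.6%, and from 20.0 to 23.6% in B3AR-Tg, with a median of 22.2%. The B3AR-Tg animals thus lay inside the WT range. The mean was 23.5% ± 3.14 in WT and 22.1% ± 1.29 in B3AR-Tg (SD, n = 8 each), a difference of -1.45 percentage points (exact permutation test over 12870 splits, two-sided p = 0.246). The nuclear copies of these genes held 2.57% ± 0.446 and 2.07% ± 0.764 of counts (exact permutation p = 0.128, n = 8 each). With them added, the shares were 26.1% ± 3.21 and 24.1% ± 1.68 (exact permutation p = 0.147, n = 8 each). Gm20594 alone held 15.7% ± 1.57 of counts in WT against 14.6% ± 2.11 in B3AR-Tg (exact permutation p = 0.269, n = 8 each). In bulk RNA such as this, fewer cells of a type and less RNA per cell cannot be told apart.

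None of the 13 mt- genes passed the threshold in edgeR, where 4.91% of all tested genes did. The unadjusted p was under 0.05 for 2 of 13, mt-Nd1 and mt-Nd3, beside 19.3% of all genes tested. DESeq2 also called 0, with 2 unadjusted, and limma voom called 1, mt-Nd3. Of all 10945 genes tested, these called 804 and 706. The log2 fold change of B3AR-Tg over WT was negative for 12 of 13, with a median of -0.25 against 0.01 for all genes tested, and positive for mt-Nd6. With scaling by library size alone it was negative for 11, with a median of -0.14 against 0.08 for all genes. Without WT replicate 3, whose mt-Nd4 and mt-Nd5 levels were the highest of all animals, it was negative for 8 and positive for 5, with a median of -0.15. These genes share their template and their primary transcripts, so they are not independent of one another.

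**Figure D1:**
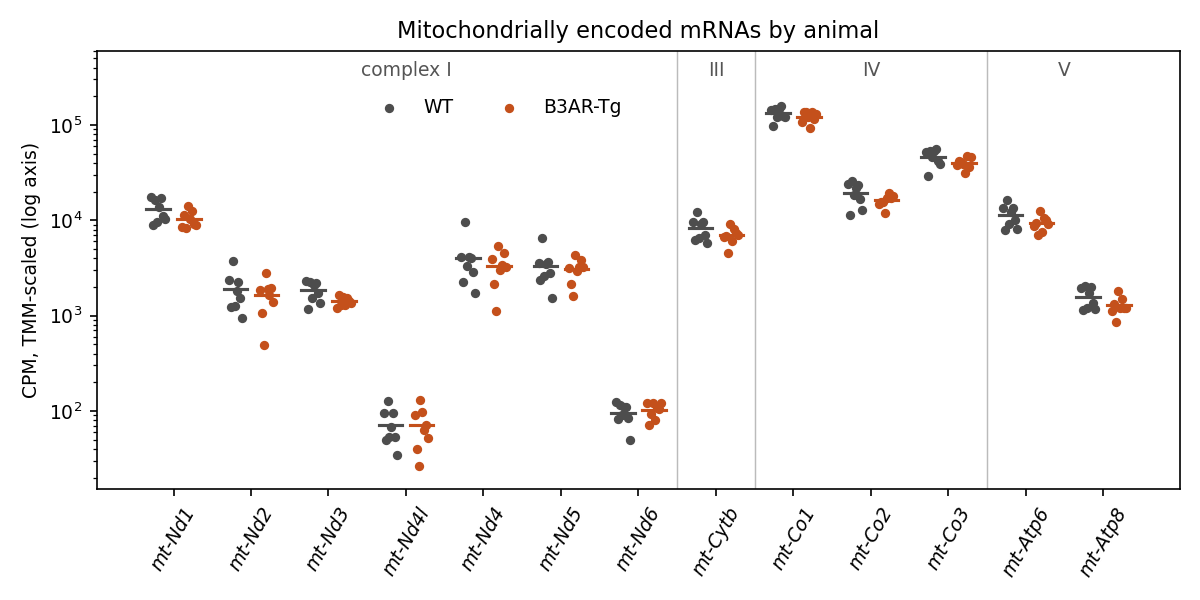
Level of each mt- gene (CPM, log axis) in 8 WT animals (grey) and 8 B3AR-Tg animals (orange), grouped by respiratory complex; each point is an animal and each bar a mean. The genotypes overlap for every gene, and mt-Nd4l and mt-Nd6 sit lowest.

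Complex I, which takes electrons from NADH, has 7 subunits encoded in mitochondrial DNA. For mt-Nd3 the lowest, median and highest levels were 1182, 1927 and 2298 CPM in WT and 1192, 1401 and 1638 CPM in B3AR-Tg. All 8 B3AR-Tg animals were at or below 1638 CPM and so under the WT median, although the groups overlapped. The log2 fold change was -0.37 (SE 0.13, edgeR adjusted p = 0.101). It passed in 2 of 26 alternative fits: limma voom gave an adjusted p of 0.0499, and edgeR without WT replicate 2 gave 0.0390. For mt-Nd1 the levels were 9003, 12449 and 17358 CPM in WT and 8346, 9712 and 14247 CPM in B3AR-Tg. Of the B3AR-Tg animals, 1 of 8 was above the WT median, and the log2 fold change was -0.33 (SE 0.15, edgeR adjusted p = 0.249).

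The other complex I genes had smaller or less certain differences. WT levels of mt-Nd2 were 934, 1672 and 3721 CPM, and those in B3AR-Tg were 492, 1744 and 2810 CPM (log2 fold change -0.21, SE 0.28). For mt-Nd4 they were 1714, 3637 and 9512 CPM against 1125, 3309 and 5378 CPM (-0.25, SE 0.30). For mt-Nd5 they were 1534, 3120 and 6553 CPM against 1606, 3191 and 4335 CPM (-0.11, SE 0.23). In each of these the groups overlapped widely. The least abundant, mt-Nd4l, had 34.8, 60.7 and 127 CPM in WT and 26.5, 67.7 and 131 CPM in B3AR-Tg (-0.01, SE 0.28). Its counts ran from 254 to 1345, and the sign of its fold change was the same in 16 of 26 alternatives. By annotation mt-Nd4l overlaps mt-Nd4 by 7 bases on the same strand, so reads there cannot be told apart. The log2 CPM of the 2 genes had a Pearson r of 0.894 over 16 animals with genotype means removed. Their levels are therefore not independent, and the overlap need not be the only tie. Adjusted p-values of these 4 genes were between 0.688 and 0.990 in edgeR.

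mt-Nd6 is the one protein gene read from the opposite strand. Its levels were 49.3, 99.9 and 124 CPM in WT and 71.0, 106 and 122 CPM in B3AR-Tg. The B3AR-Tg range lay within that of WT. The log2 fold change was 0.10 (SE 0.15, edgeR adjusted p = 0.761), with the same sign in 26 of 26 alternatives. Without WT replicate 8, the animal with the lowest mt-Nd6 share, it was 0.006, so the sign there says little. The gene mt-Nd6 overlaps mt-Nd5 by 14 bases on the other strand, and the strand setting of the counting is not given in the sources used here.

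Complex IV, the oxidase that passes electrons to oxygen, held the most abundant mt- messages. Levels of mt-Co1 were 98480, 134467 and 159823 CPM in WT and 92843, 124990 and 137583 CPM in B3AR-Tg animals (log2 fold change -0.13, SE 0.11, edgeR adjusted p = 0.561). Those of mt-Co2 were 11460, 20130 and 25605 CPM against 11984, 16306 and 19305 CPM (-0.26, SE 0.15, adjusted p = 0.368). Those of mt-Co3 were 29263, 49240 and 56106 CPM against 31638, 39804 and 47220 CPM (-0.21, SE 0.12, adjusted p = 0.379). For mt-Co2 and mt-Co3, 0 of 8 B3AR-Tg animals were above the WT median, although the WT range reached below all of them.

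Complex III and the ATP synthase showed similar sizes of difference. mt-Cytb, cytochrome b of complex III, had 5845, 8075 and 12108 CPM in WT and 4544, 6953 and 9188 CPM in B3AR-Tg animals (log2 fold change -0.25, SE 0.15, edgeR adjusted p = 0.396). mt-Atp6, part of the proton channel, had 7941, 11213 and 16215 CPM against 7091, 9213 and 12634 CPM (-0.27, SE 0.15, adjusted p = 0.338). mt-Atp8 had 1135, 1541 and 2024 CPM against 864, 1198 and 1803 CPM (-0.30, SE 0.15, adjusted p = 0.291). In each of these 3 genes 1 of 8 B3AR-Tg animals was above the WT median. mt-Atp8 and mt-Atp6 share 43 bases on the same strand, so reads there cannot be told apart.

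Shares of the 13-gene sum do not depend on how libraries were scaled. Complex IV made up 81.7% ± 2.48 of the sum in WT and 82.4% ± 3.47 in B3AR-Tg, complex I 9.75% ± 1.61 and 9.36% ± 2.12, complex V 5.23% ± 0.513 and 4.96% ± 0.811, and complex III 3.37% ± 0.389 and 3.24% ± 0.585 (SD, n = 8). Exact permutation gave p-values of 0.619, 0.688, 0.441 and 0.648 for these 4 differences, unadjusted. By gene, 0 of 13 shares passed an adjusted p of 0.05 by exact permutation with Benjamini-Hochberg adjustment over the 13, and 1 had an unadjusted p under 0.05. That was mt-Nd3, at 0.662, 0.757 and 0.832% (lowest, median, highest) in WT and 0.590, 0.661 and 0.742% in B3AR-Tg. Its mean share was 0.746% ± 0.0579 against 0.660% ± 0.0595 (exact permutation p = 0.0127, adjusted p = 0.166, n = 8 each). mt-Nd6 had the next smallest p, with 0.0391% ± 0.00711 against 0.0479% ± 0.00929 (exact permutation p = 0.0511, adjusted p = 0.332, n = 8 each). As centred log2 ratios, each gene against the mean log2 count of the 13, 0 of 13 passed as well. There mt-Nd6 alone had an unadjusted p under 0.05 (exact permutation p = 0.0263, adjusted p = 0.341). On that scale mt-Nd3 had p = 0.145 (exact permutation, adjusted p = 0.551), so the gene with the smallest p depended on the scale.

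**Figure D2:**
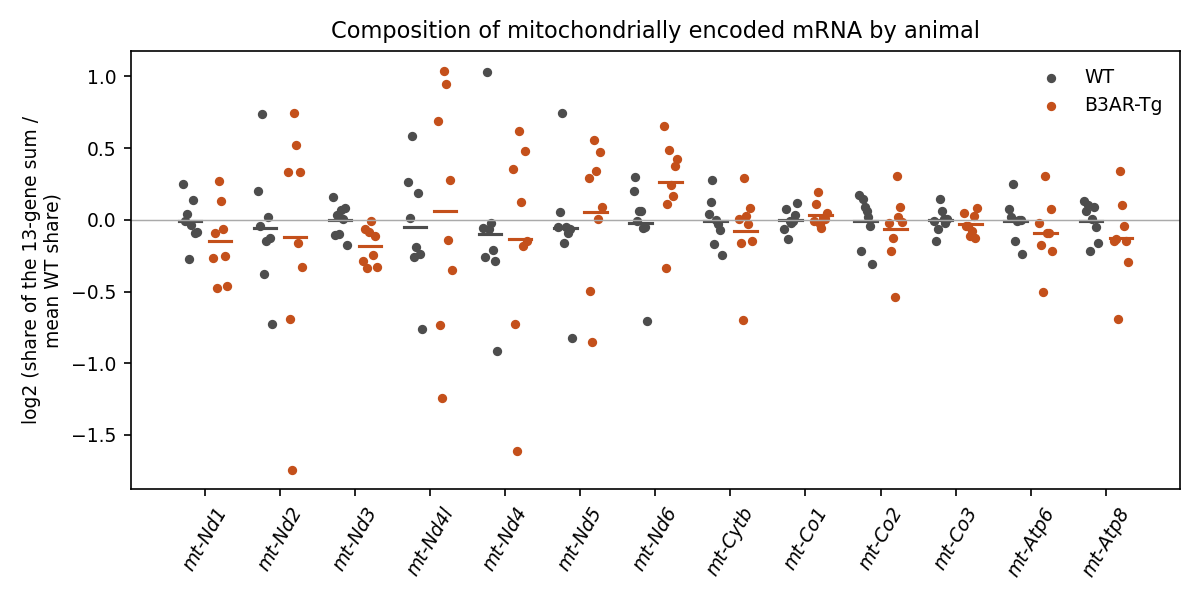
Share of each mt- gene in the 13-gene sum of an animal, as the log2 ratio to the mean WT share. Points are animals (8 WT grey, 8 B3AR-Tg orange) and short lines mark means of the log2 ratios. mt-Nd2, mt-Nd4, mt-Nd4l and mt-Nd5 spread most in both genotypes, and mt-Co1 and mt-Co3 least.

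Compared per kilobase of transcript, the 13 genes were far from equal. The share of the per-kilobase sum in WT was 37.7% ± 2.67 for mt-Co1, 25.7% ± 1.502 for mt-Co3 and 12.1% ± 1.19 for mt-Co2 (SD, n = 8). mt-Atp6 followed at 7.14% ± 0.656, mt-Nd1 at 5.86% ± 0.598, mt-Atp8 at 3.31% ± 0.264 and mt-Cytb at 3.12% ± 0.340. mt-Atp8 and mt-Cytb differed by less than 1 SD of either. mt-Nd3 held 2.27% ± 0.149, and with each copy summed into its gene 5.27% ± 0.275, beside 5.12% ± 0.522 for mt-Nd1, 2.89% ± 0.243 for mt-Atp8 and 2.73% ± 0.323 for mt-Cytb on that basis, so its place in the order depends on the booking of reads to Gm28438. Without the copies, mt-Nd4 held 1.20% ± 0.522, mt-Nd5 0.765% ± 0.228 and mt-Nd2 0.764% ± 0.233, and these last 3 differed by less than the SD of mt-Nd4. At the bottom were mt-Nd4l at 0.102% ± 0.0271 and mt-Nd6 at 0.0797% ± 0.0143. Counts were divided by annotated transcript length, with no correction for the length of the sequenced fragments. The places of the shortest genes, mt-Atp8 at 204 bases and mt-Nd4l at 297, are therefore uncertain and may not reflect the amount of message. The 3 subunits of complex IV thus led by length-corrected share, and in B3AR-Tg the leading values were 39.1% for mt-Co1, 25.5% for mt-Co3 and 11.8% for mt-Co2.

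Across animals the mt- genes did not all move together. Pearson correlations of log2 CPM over 16 animals, with genotype means removed, were between 0.886 and 0.975 among mt-Nd2, mt-Nd4, mt-Nd4l and mt-Nd5. Those of the same 4 genes with mt-Co1 were between -0.00247 and 0.224, while mt-Co1 and mt-Co3 had 0.908. mt-Atp8, mt-Atp6 and mt-Cytb had 0.941 to 0.975 among them but were not a set apart. mt-Cytb had 0.887 with mt-Nd2, 0.899 with mt-Nd4, 0.908 with mt-Nd5 and 0.805 with mt-Nd4l. mt-Nd1 had 0.956 with mt-Atp8, 0.874 with mt-Atp6 and 0.846 with mt-Cytb. These values describe genes that share libraries, depth and a template, and carry no test. The combined share of mt-Nd2, mt-Nd4, mt-Nd4l and mt-Nd5 ran from 2.05 to 6.72% of the 13-gene sum in WT and from 1.48 to 5.67% in B3AR-Tg (exact permutation p = 0.838, n = 8 each).

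The booking of reads to nuclear copies varied between animals far more than between genotypes. Of the counts given to mt-Co2 and Gm28661 together, whose transcripts are identical as printed, the copy held 5.06, 15.8 and 37.2% (lowest, median, highest) in WT and 1.71, 4.38 and 47.0% in B3AR-Tg. The means were 19.3% ± 11.8 and 12.1% ± 16.7 (exact permutation p = 0.331, n = 8 each). For mt-Co3 and Gm28437 the copy held 8.41, 13.96 and 20.9% in WT against 6.23, 9.14 and 21.5% in B3AR-Tg (exact permutation p = 0.274, n = 8 each). The 4 animals with the highest Gm28661 share, WT replicates 2 and 8 and B3AR-Tg replicates 2 and 4, were also the 4 with the highest Gm28437 share.

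The pairs that differ at 1 base had a steadier split than mt-Co2 and mt-Co3 had with their copies. Whether the single base bears on this was not tested. Gm28438 held 62.2% ± 2.73 of its pair with mt-Nd3 in WT against 61.4% ± 4.14 in B3AR-Tg (exact permutation p = 0.649, n = 8 each), so more counts of this message were booked to the copy than to mt-Nd3 in every animal, the lowest being 54.8%. Gm29216 held 7.92% ± 0.778 of its pair with mt-Co1 against 7.58% ± 1.17 (exact permutation p = 0.501, n = 8 each). Gm28439, identical to part of mt-Nd4, had counts in B3AR-Tg replicate 5 alone, at 4.80% of its pair, and Gm10925 and Gm10222 had a count of 0 in all 16 animals.

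**Figure D3:**
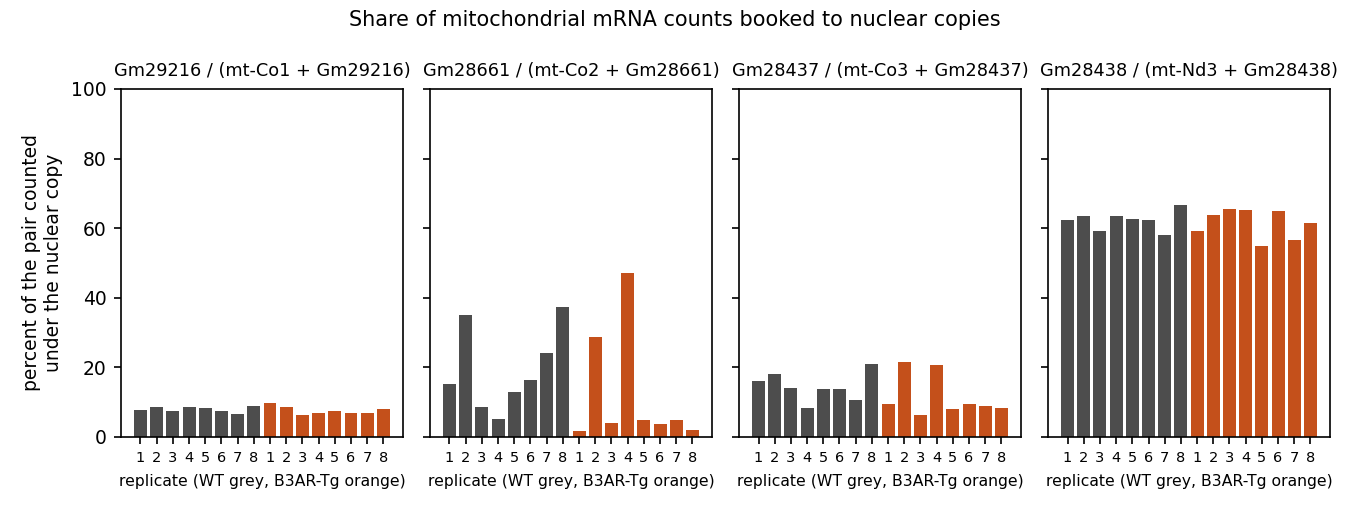
Percent of the counts of a mitochondrial gene and its nuclear copy that were booked to the copy, 1 bar per animal (8 WT grey, 8 B3AR-Tg orange), for the 4 pairs with counts in all animals. Gm28661 ranges from 1.71 to 47.0% between animals, while Gm28438 stays between 54.8 and 66.8%.

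When each copy was added to its mt- gene, edgeR called 0 of 13, as without the addition. The unadjusted p was under 0.05 for 3 of 13, beside 2119 of all 10941 genes tested in that fit. The log2 fold change of mt-Co2 moved from -0.26 to -0.34 (edgeR adjusted p = 0.0960), and that of mt-Nd3 from -0.37 to -0.38 (adjusted p = 0.111). As a share of the summed 13 genes and copies, mt-Nd3 was 1.78% ± 0.109 in WT against 1.57% ± 0.139 in B3AR-Tg (exact permutation p = 0.00544, adjusted p = 0.0707, n = 8 each). mt-Co2 was 8.74% ± 0.417 against 7.97% ± 0.872 (exact permutation p = 0.0418, adjusted p = 0.181, n = 8 each). mt-Nd6 went the other way, at 0.0353% ± 0.00653 in WT against 0.0439% ± 0.00865 in B3AR-Tg (exact permutation p = 0.0396, adjusted p = 0.181, n = 8 each). These were the 3 shares with an unadjusted p under 0.05, and 0 of 13 passed after adjustment. The unadjusted p of mt-Co2 was 0.667 before the addition.

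Among the 24 nuclear genes, 1 was called by edgeR, 1 by DESeq2 and 1 by limma voom, Polg2 in each. A share of 1 in 24 is near the edgeR background of 4.91%. Of all 10945 genes tested, DESeq2 called 804 and limma voom 706. The log2 fold changes were positive for 15 and negative for 9, with a median of 0.04 against 0.01 for all genes. With scaling by library size alone, 21 were positive, with a median of 0.12 against 0.08. The unadjusted p was under 0.05 for 4 of 24, Polg2, Top1mt, Slirp and Lrpprc, beside 19.3% of all genes tested.

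**Figure D4:**
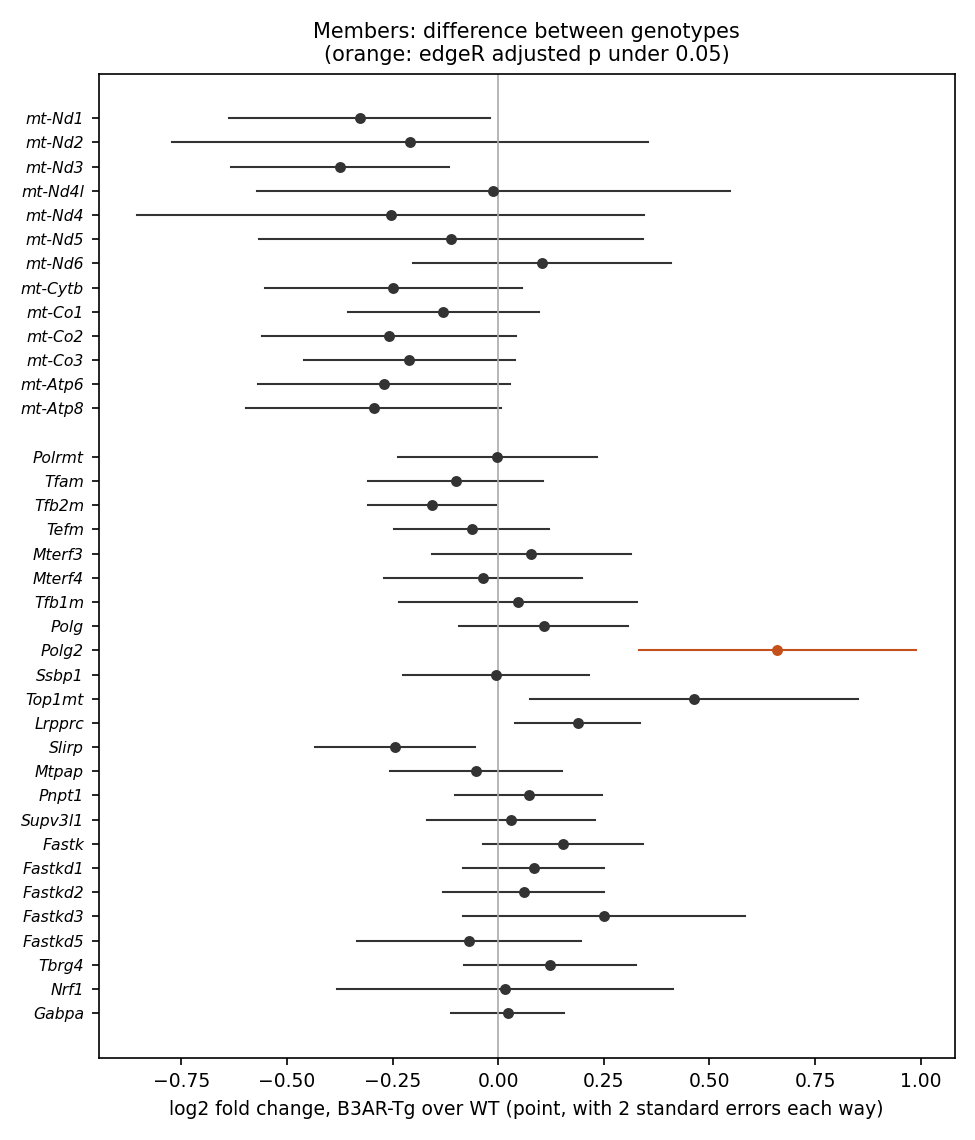
Log2 fold change of B3AR-Tg over WT for the 13 mt- genes (upper block) and the 24 nuclear genes (lower block), each point with 2 standard errors either way. Polg2 (orange, 0.66) is the one gene past an edgeR adjusted p of 0.05, and 12 of 13 mt- genes lie left of 0.

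Polg2 encodes the accessory subunit of the mitochondrial DNA polymerase, which helps the catalytic subunit stay on its template. Its lowest, median and highest levels were 1.90, 2.24 and 3.09 CPM in WT and 2.83, 3.88 and 4.59 CPM in B3AR-Tg. All 8 B3AR-Tg animals were above the WT median, and the groups overlapped between 2.83 and 3.09 CPM. The mean rose from 2.42 ± 0.460 to 3.82 ± 0.578 CPM (SD, n = 8), a log2 fold change of 0.66 (SE 0.16, edgeR adjusted p = 0.0239). These levels rest on 13 to 66 counts per animal. The call held in 22 of 26 alternative fits, and among those that lost it were the fit with no low-count filter (adjusted p = 0.0510), the fit with the level of other-cell markers as a covariate (0.161) and the fit without B3AR-Tg replicate 5 (0.0544). The covariate fit called 25 of all 10945 genes tested. Over the alternative fits the log2 fold change of Polg2 stayed between 0.62 and 0.75. Its exons overlap those of Milr1 on the opposite strand by 132 bases.

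The other replication genes did not pass. Top1mt, the mitochondrial topoisomerase, had 2.06, 2.93 and 3.79 CPM in WT and 2.05, 4.23 and 5.14 CPM in B3AR-Tg. Of the B3AR-Tg animals 7 of 8 were above the WT median and 1 was just under the WT minimum (log2 fold change 0.46, SE 0.19, edgeR adjusted p = 0.187). Polg, the catalytic subunit, was at 45.1 ± 7.85 and 48.5 ± 4.42 CPM (0.11, SE 0.10, adjusted p = 0.596). Ssbp1, which coats single-stranded mitochondrial DNA, was at 15.5 ± 2.33 and 15.4 ± 2.17 CPM (-0.00, SE 0.11, adjusted p = 0.990).

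None of the 6 transcription genes passed. Tfam, which packages mitochondrial DNA and opens its promoters, had 31.6, 40.0 and 54.3 CPM in WT and 30.9, 36.8 and 47.8 CPM in B3AR-Tg animals (log2 fold change -0.10, SE 0.10, edgeR adjusted p = 0.637). Polrmt, the RNA polymerase itself, had 10.6, 14.2 and 19.0 CPM against 11.2, 14.5 and 17.96 CPM (-0.00, SE 0.12, adjusted p = 0.997). Both pairs of ranges overlapped nearly in full, and 2 standard errors around Polrmt span -0.24 to 0.23. Tfb2m, which melts the promoter, was at 62.5 ± 6.22 and 56.1 ± 4.72 CPM, with 1 of 8 B3AR-Tg animals above the WT median (-0.16, SE 0.08, adjusted p = 0.265). The elongation factor Tefm and the terminator family genes Mterf3 and Mterf4 had log2 fold changes of -0.06, 0.08 and -0.04. Tfb1m, which methylates the small ribosomal RNA, had 0.05 (SE 0.14, adjusted p = 0.899).

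Messenger RNA stability rests on the partners Lrpprc and Slirp, which bind mitochondrial messages as a complex. Lrpprc had 204, 225 and 268 CPM in WT and 217, 258 and 282 CPM in B3AR-Tg, with 7 of 8 B3AR-Tg animals above the WT median. Its log2 fold change was 0.19 (SE 0.07, edgeR adjusted p = 0.158). Slirp had 27.6, 33.1 and 41.7 CPM in WT and 23.2, 26.8 and 33.8 CPM in B3AR-Tg, with 1 of 8 above the WT median. Its log2 fold change was -0.24 (SE 0.09, adjusted p = 0.150). The fold changes of the partners had opposite signs, and neither passed the threshold. By annotation 2914 of 3104 exonic bases of Slirp are shared with Snw1 on the opposite strand, so its count is uncertain if strand was not used.

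The remaining RNA genes had small differences. Mtpap, the poly(A) polymerase, had a log2 fold change of -0.05 (SE 0.10), and the degradosome genes Pnpt1 and Supv3l1 had 0.07 (SE 0.09) and 0.03 (SE 0.10). The 6 FASTK family genes, which process or stabilise particular mitochondrial RNAs, had log2 fold changes of 0.15 for Fastk, 0.08 for Fastkd1, 0.06 for Fastkd2, 0.25 for Fastkd3, -0.07 for Fastkd5 and 0.12 for Tbrg4. Their edgeR adjusted p-values lay between 0.401 and 0.824. Of the exonic bases of Fastkd5, 1966 of 3015 are also Ubox5 on the same strand, so the part of its count from those bases cannot be separated from that gene's.

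The nuclear transcription factors that act on many of these promoters were also close between genotypes. Nrf1 had 2.88, 4.78 and 5.99 CPM in WT and 3.11, 4.63 and 7.41 CPM in B3AR-Tg animals (log2 fold change 0.02, SE 0.20, edgeR adjusted p = 0.978). Gabpa, the DNA-binding subunit of the factor also called NRF-2, had 51.3, 56.5 and 58.8 CPM against 47.3, 56.6 and 62.1 CPM (0.02, SE 0.07, adjusted p = 0.898). Within 2 standard errors, Gabpa lay between -0.11 and 0.16 and Nrf1 between -0.38 and 0.41.

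Promoters of the nuclear genes were searched for the letters of these factors' sites on both strands, in RefSeq windows of 250 bases before to 50 after the start (GRCm38.p6). A window was found for 21 of 24 genes. CCGGAAG, the core of a GABPA site, was in 12 of 21 genes (57.1%) and in 8.86% of all 32817 windows. An NRF1 site, searched as GCGCA followed by any 1 base and then GCGC, was in 2 of 21 (9.52%), Polrmt and Fastkd3, and in 4.59% of all windows. Polrmt alone held both, as did 0.887% of all windows. The 250 bases before the start are shown for Polg2, the gene that rose, for Polrmt, which holds both motifs, and for Tbrg4, which holds CCGGAAG in both orientations. Matches are in capitals, and where a site runs past the start only its upstream bases are shown.
Polg2, minus strand of chr11:106779538-106779787: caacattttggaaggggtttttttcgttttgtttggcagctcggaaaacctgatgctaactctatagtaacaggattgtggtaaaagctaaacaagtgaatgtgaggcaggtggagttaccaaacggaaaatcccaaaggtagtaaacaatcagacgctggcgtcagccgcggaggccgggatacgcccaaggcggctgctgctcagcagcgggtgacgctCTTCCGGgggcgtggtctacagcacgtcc
Polrmt, minus strand of chr10:79746582-79746831: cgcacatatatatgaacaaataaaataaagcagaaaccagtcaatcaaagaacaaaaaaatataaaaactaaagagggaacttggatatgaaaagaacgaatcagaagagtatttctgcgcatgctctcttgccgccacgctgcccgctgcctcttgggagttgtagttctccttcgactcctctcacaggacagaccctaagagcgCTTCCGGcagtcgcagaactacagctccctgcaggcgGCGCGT
Tbrg4, minus strand of chr11:6626068-6626317: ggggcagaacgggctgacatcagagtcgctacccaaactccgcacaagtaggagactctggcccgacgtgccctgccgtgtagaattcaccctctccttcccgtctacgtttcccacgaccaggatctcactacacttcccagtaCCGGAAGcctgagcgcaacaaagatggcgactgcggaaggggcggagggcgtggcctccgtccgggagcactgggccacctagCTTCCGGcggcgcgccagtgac
A match is a description of the letters. Polg2 and Tbrg4 both hold CCGGAAG, and their log2 fold changes were 0.66 and 0.12.

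The wider pathway was a list of 103 further genes for mitochondrial replication, RNA processing and modification, translation and nuclear control, of which 99 were tested. It had 3 calls in edgeR, all higher in B3AR-Tg, where 2.03% of all genes tested were called higher. limma voom called 2 higher and 1 lower (Lars2, described further on), beside 309 higher and 397 lower of all 10945 genes tested. In edgeR the log2 fold change was positive for 67 and negative for 32, with a median of 0.06 against 0.01 for all genes. With scaling by library size alone it was positive for 80 and negative for 19, with a median of 0.15 against 0.08, and with the other-cell covariate positive for 54 and negative for 45, with a median of 0.01 against 0.00. Ppargc1a, a coactivator of mitochondrial gene programmes, had 67.5, 87.1 and 110 CPM in WT and 89.8, 118 and 290 CPM in B3AR-Tg animals (log2 fold change 0.74, SE 0.20, edgeR adjusted p = 0.0384). Its relative Ppargc1b rose from 6.79 ± 1.10 to 9.44 ± 1.40 CPM (0.47, SE 0.13, adjusted p = 0.0356). Sars2, the mitochondrial seryl-tRNA synthetase, rose from 4.96 ± 1.34 to 7.30 ± 1.14 CPM (0.57, SE 0.15, adjusted p = 0.0356). For each of these 3 genes, all 8 B3AR-Tg animals were above the WT median and the groups overlapped. With the level of other-cell markers as a covariate, 0 of 99 were called, beside 25 of all 10945 genes tested. The covariate, the mean log2 CPM of those markers, ran from 2.69 to 3.58 in WT animals and from 1.24 to 2.86 in B3AR-Tg animals. In that fit the log2 fold changes were 0.60 (SE 0.30, edgeR adjusted p = 0.376) for Ppargc1a, 0.36 (SE 0.18, adjusted p = 0.376) for Ppargc1b and 0.56 (SE 0.22, adjusted p = 0.241) for Sars2.

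These 3 edgeR calls were close to the threshold. Ppargc1a stayed called in 6 of 16 fits that left out 1 animal, with adjusted p-values from 0.0211 to 0.0721, and was lost without WT replicate 2, 4, 5, 6, 7 or 8 or B3AR-Tg replicate 1, 3, 5 or 6. Ppargc1b stayed called in 8 of 16, from 0.0278 to 0.0850, and was lost without WT replicate 1, 2, 4 or 8 or B3AR-Tg replicate 2, 3, 4 or 5. Sars2 stayed called in 6 of 16, from 0.00716 to 0.0823, and was lost without WT replicate 1, 2, 4, 5, 6 or 8 or B3AR-Tg replicate 2, 3, 5 or 7. Among the mitochondrial ribosomal protein genes (Mrpl and Mrps), 1 was higher and 1 lower of 80 tested, beside 2.03% higher and 2.88% lower of all genes tested, and the median log2 fold change was 0.00.

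Within genotypes, the mt- share of counts was set beside 3 measures, with 6 correlations computed in all and p-values adjusted over them. Nppa, the natriuretic peptide gene of stressed myocytes, lay at 78.4 to 330.0 CPM in 5 WT animals and at 1076 to 1349 CPM in the other 3. Over all 8 WT animals r was -0.848 (exact permutation p = 0.0192, adjusted p = 0.0384) and rho was -0.881 (exact permutation p = 0.00724, adjusted p = 0.0435), with r of -0.725 without the 2 animals farthest from the median. The gap between 330.0 and 1076 CPM limits this value, since either side holds fewer than 6 animals and r was not computed within them. WT replicates 2, 4, 7 and 8 had the lowest mt- shares (18.8 to 21.8%). They also had the highest levels of other-cell markers (mean log2 CPM 3.06 to 3.58). Whether the mixture of cells bears on the relation with Nppa was not tested. When 1 WT animal was left out r ran from -0.924 to -0.804, and the adjusted p was above 0.05 without WT replicate 2 (0.110), 3 (0.0664), 5 (0.0810) or 6 (0.0901). In the 8 B3AR-Tg animals r was 0.257 (exact permutation p = 0.552, adjusted p = 0.599) and rho was -0.0714 (exact permutation p = 0.882), with r of -0.123 without the 2 farthest. The difference between the genotypes was not tested. The mean log2 CPM of the 24 nuclear genes had r of 0.495 in WT (exact permutation p = 0.203, adjusted p = 0.304; rho 0.476, p = 0.243) and -0.227 in B3AR-Tg (exact permutation p = 0.599, adjusted p = 0.599; rho -0.310, p = 0.462). Without the 2 farthest animals these were 0.272 and -0.675. Without WT replicate 3 alone, the WT value was 0.801 (exact permutation p = 0.0397, adjusted p = 0.0664, n = 7). No correlation of the mt- messages with their machinery passed the threshold, which does not show that there was none.

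**Figure D5:**
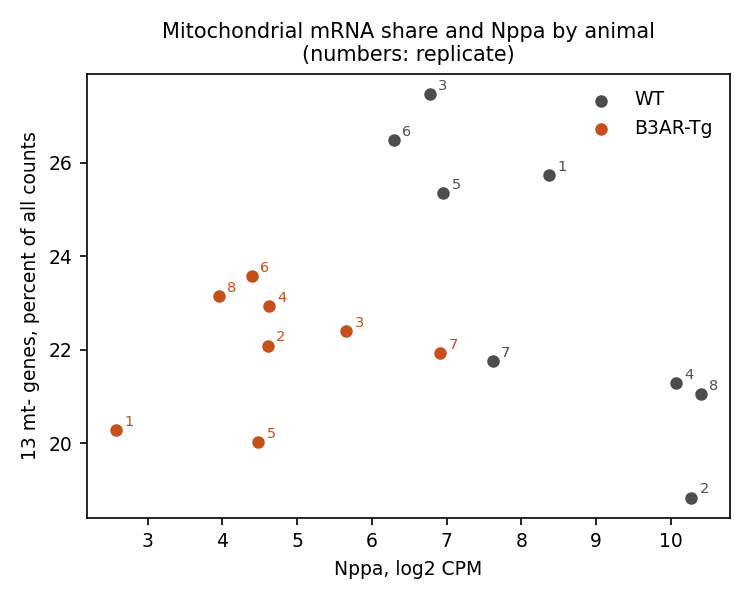
Share of the 13 mt- genes in all counts (percent) against Nppa (log2 CPM) for each animal, with its replicate number (8 WT grey, 8 B3AR-Tg orange). WT shares run from 18.8 to 27.5% with Nppa in separate sets of 5 and 3 animals, and B3AR-Tg shares from 20.0 to 23.6%.

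Gm20594 was used in place of the mitochondrial ribosomal RNA genes, which its transcript resembles in part. Its share of counts and that of the mt- genes had r of 0.844 in WT (exact permutation p = 0.00585, adjusted p = 0.0351, n = 8), rho of 0.810 (exact permutation p = 0.0218, adjusted p = 0.0653) and r of 0.810 without the 2 farthest animals. In B3AR-Tg r was 0.862 (exact permutation p = 0.0144, adjusted p = 0.0384, n = 8) and rho was 0.595 (exact permutation p = 0.132, adjusted p = 0.265). Without the 2 farthest animals r was 0.153, so the B3AR-Tg relation rests on those animals, replicates 1 and 5. Both measures are shares of the same library total. The libraries were depleted of ribosomal RNA, and whether the degree of depletion differed between animals was not tested. The values of r therefore describe Gm20594 counts and not the level of mitochondrial ribosomal RNA.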

How the data were processed

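RNA of isolated ventricular myocytes was measured in 8 WT and 8 B3AR-Tg mice after TAC. The authors deposited raw gene counts, whole numbers in 1 column per animal, with no normalization, per the file headers; 0 columns of values were left unused. Salmon and GRCm39 are named in the submitters' processing notes without a role. Salmon gives estimated counts, and rounding of them is not given in the sources used here, nor are the annotation release, the strand setting and the assignment of reads that match several genes. Columns were matched to animals by the name in their label, and the same labels gave the genotype and the replicate number. The labels call the animals biological replicates.

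Genes were tested with edgeR 4.0.16 (glmQLFit, glmQLFTest) in R 4.3.3 after filterByExpr (minimum count 10, minimum total 15) and TMM scaling, with genotype alone in the model and Benjamini-Hochberg adjustment over all 10945 tested genes. CPM are scaled by TMM; log2 CPM have a prior count of 2. Error bars in the text are SDs, and bounds are 2 standard errors. Single values and shares were compared by exact permutation (two-sided, 12870 splits, smallest p 0.000155), and correlations by all 40320 orders of 8 animals. DESeq2 1.42.0 and limma 3.58.1 were alternatives. Transcripts of GENCODE M21 (GRCm38) were aligned with BLAST 2.17.0; 35441 of 35682 gene IDs were found there, and positions and overlaps come from it. Each member had more than 3 counts, the floor used here, in every animal. The fits were tested on simulated data.

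The members and lists were chosen with earlier results of these data known. Levels of every animal range are given for the mt- genes, for members past the threshold and for Tfam, Polrmt, Lrpprc, Nrf1 and Gabpa; others are given in part. Of the wider pathway, up to 6 genes in each direction past the threshold were named. Since the 2 ribosomal RNA genes were not analysed here, their share, planned as a result, was replaced by that of Gm20594. Alternatives covered scaling, the low-count filter, the test, a covariate of other-cell markers, the replicate number as a block, removal of each animal, and the handling of the copies, which was added after the data were seen.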

Additional observations from a re-analysis of the deposited data

Results flagged for a closer look

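Among 86 sets of 8 animals (each nuclear gene, each mt- share, the summed shares and the copy splits, by genotype), 6 held an animal set apart from the others of its genotype by more than Dixon's 95% limit. Chance flags about 5% of such sets, which is 4.3 of 86, so the number is near what chance gives. Top1mt was lowest in B3AR-Tg replicate 6, at 2.05 CPM, with the other animals at 3.45 to 5.14. Fastk was highest in B3AR-Tg replicate 3, at 126 CPM against 80.7 to 99.0, and the same animal had the lowest Gabpa, at 47.3 CPM against 55.0 to 62.1. In WT replicate 3 the shares of the 13-gene sum were highest for mt-Nd4, at 3.21% against 0.833 to 1.54%, and for mt-Nd5, at 2.21% against 0.745 to 1.37%. In WT replicate 8 the share of mt-Nd6 was lowest, at 0.0240% against 0.0375 to 0.0481%. mt-Nd4 and mt-Nd5 varied together across animals, so these shares are not independent sets.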

How the results depend on the processing

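The number of mt- genes called was 0 in the reported fit and 1 (mt-Nd3) with limma voom; leaving out 1 animal gave 0 to 1. The number of nuclear machinery genes called was 1 in the reported fit and 0 with no low-count filter, 0 with other-cell markers as a covariate, 0 with the replicate block (Polg2, adjusted p = 0.0935), and 0 to 1 when 1 animal was left out. The number of wider pathway genes called was 3 in the reported fit, 0 with that covariate, 1 with the replicate block and 0 to 4 when 1 animal was left out. Over all genes, 537 were called in the reported fit, 804 by DESeq2, 706 by limma voom, 230 with the replicate block and 25 with the covariate. Animals with the same replicate number did not deviate together (r from -0.219 to 0.0935, 0 of 8 pairs above 0.1 and 0 animals closest to their own number), so the number does not pair them. With the replicate block, the difference in mt- share was -1.45 points (exact sign-flip permutation p = 0.297) and 0 of 13 shares of the sum passed. The correlation of the mt- and Gm20594 shares was 0.817 in WT (adjusted p = 0.0612, permutation) and 0.727 in B3AR-Tg (adjusted p = 0.0833, permutation) when the copies of the protein-coding genes were added. When 1 animal was left out it ran from 0.743 to 0.887 in WT and from 0.799 to 0.897 in B3AR-Tg, and it stayed past the threshold in 7 of 8 and 5 of 8 cases, with adjusted p-values up to 0.110 (without WT replicate 2) and 0.108 (B3AR-Tg replicates 1, 5 and 6 were those that lost it). The correlation of the mt- share with Nppa in WT was -0.829 (adjusted p = 0.05, permutation) as a ratio to nuclear counts and -0.813 (adjusted p = 0.0833, permutation) with the copies added, and -0.924 to -0.804 when 1 animal was left out, past the threshold in 4 of 8. The causes of these changes were not tested. The share of ribosomal RNA and its alternatives were not run, since those genes were not analysed here, and the sum without them is the sum reported. Signs of values that no fit called were not read as reversals. The least abundant messages, Polg2 and Top1mt among the machinery, limit what the depth can show.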

Other observations

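Lars2, the mitochondrial leucyl-tRNA synthetase, is among the tested wider pathway genes and was singled out after its values were seen. It had 44.1, 183 and 1216 CPM (lowest, median, highest) in WT and 9.50, 21.6 and 807 CPM in B3AR-Tg, on 91 to 8306 counts, and 1 of 8 B3AR-Tg animals was above the WT median. Its log2 fold change was -1.35 (SE 0.87, edgeR adjusted p = 0.419) and -2.65 in limma voom (adjusted p = 0.0335). Without B3AR-Tg replicate 4, the animal at 807 CPM, edgeR gave -3.39 (adjusted p = 0.00913), and with other-cell markers as a covariate -0.02 (adjusted p = 0.996).

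The tested genes whose log2 CPM followed the summed mt- genes most closely over 16 animals, with genotype means removed, were mt-Co3 (r = 0.954), Lime1 (0.941), mt-Co1 (0.936), mt-Nd3 (0.910) and Tmem258 (0.883). mt-Co3, mt-Co1 and mt-Nd3 are themselves part of that sum, so a high r is partly built in for them. Lime1 and Tmem258 are the highest nuclear genes in a search over 10945 tested genes. All share libraries and scaling, and no test was made.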
